A study of Mus musculus with 4 samples.

Results

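The Ebf genes, Ebf1 to Ebf4, encode the early B cell factors, a family of 4 transcription factors. They were followed through the H3K27me3 landscape of wild-type yolk sac erythro-myeloid progenitors (EMPs) by their gene symbols and positions alone. Peaks were taken as theirs where the authors' annotation named an Ebf gene or where a peak lay in the gene or within 20 kb of it. This gave 32 of the 10223 H3K27me3 peaks found with 500 EMPs and 19 of the 15282 peaks found with 15000 EMPs. All 4 genes had peaks in both libraries. H3K27me3 lay over and around the Ebf2 start, on both sides of the Ebf1, Ebf3 and Ebf4 starts with the start itself left free, and additionally over the 3′ part of Ebf4.

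The series profiled H3K27me3 by CUT&RUN, in which an antibody directs a nuclease to chromatin carrying the mark and the released fragments are sequenced, to find candidate Ezh2 target genes in EMPs at mid-gestation (E10.5). An H3K27me3 library and an IgG library, made with a non-specific antibody, were prepared from 500 EMPs, and the same pair from 15000 EMPs, so that each of the 4 groups held 1 library. All came from yolk sacs of the C57BL/6 strain. The genotype label sets the words wild type beside the notation Ezh2fl/fl; Tie2-Cre+/+, and the cells are called wild type here because the study does so. In that notation fl/fl stands for Ezh2 alleles that Cre can delete, and Tie2-Cre is active in endothelium and in the blood cells that arise from it. EMPs were sorted by their surface phenotype (KIT, CD41 and CD16/32). There were no replicates, so no difference between the cell numbers below has a replicate check or a test. The libraries also differed in PCR cycles (17 with 500 EMPs and 16 with 15000 EMPs), in read length (76 bp and 59 bp), in the instrument and in the stringency of peak calling, which was higher with 500 EMPs. Fewer reads were obtained and aligned for the smaller input, according to the study's reporting form. These differences cannot be told apart from cell number. The files gave positions of peaks only, hence a peak was present or absent, and the files held neither its height nor any read count.

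H3K27me3 is laid down by PRC2, the Polycomb complex in which Ezh2 is a catalytic subunit, and typically covers CpG-rich starts of developmental regulators that a cell does not use. Ebf proteins bind DNA as dimers through a zinc-coordinating domain and a helix-loop-helix region. Ebf1 specifies the B cell lineage together with Tcf3 and Pax5, Ebf2 is known for brown adipocytes and neurons, Ebf3 for neuronal development, and Ebf4 is the least studied member. EMPs give rise to erythroid and myeloid cells.

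All 4 genes were long. In GENCODE on mm10, Ebf1 (ENSMUSG00000057098) lay on the plus strand at chr11:44617317-45008091, a length of 391 kb. Ebf2 (ENSMUSG00000022053) lay on the plus strand at chr14:67233292-67430918 and spanned 198 kb. Ebf3 (ENSMUSG00000010476) lay on the minus strand at chr7:137193673-137314445 and spanned 121 kb. Ebf4 (ENSMUSG00000053552) lay on the plus strand at chr2:130295169-130370481 and spanned 75.3 kb. The longest encoded proteins, translated from the coding sequences of the annotation, were 71.9% to 90.4% identical in pairs. Ebf1 and Ebf3 were the most alike, with 534 identical residues of 591 aligned, and Ebf2 and Ebf4 were the least alike.

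Sequences at and beside the mark are shown next, 5′ to 3′ on the strand of the gene, with each CpG in capitals. The first group holds the 250 bases before a RefSeq start, from RefSeq promoter entries on GRCm38. It is shown because the 15000-EMP peaks left out that of Ebf3 and covered those of starts within Ebf4 and Ebf1. Another RefSeq promoter of Ebf1, near the gene start, was covered in neither library and is not shown. The Ebf4 and Ebf1 stretches lie in introns of the gene models, that of Ebf4 just before a start 770 bp into the gene.
Ebf3 promoter, chr7:137314446-137314695, minus strand: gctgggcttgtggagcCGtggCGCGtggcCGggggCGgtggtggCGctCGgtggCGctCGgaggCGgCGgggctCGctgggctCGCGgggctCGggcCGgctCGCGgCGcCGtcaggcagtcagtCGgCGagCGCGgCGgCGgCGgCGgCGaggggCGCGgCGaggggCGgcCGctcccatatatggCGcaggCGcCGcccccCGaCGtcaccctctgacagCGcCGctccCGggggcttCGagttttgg
Ebf4 internal promoter, chr2:130295689-130295938, plus strand: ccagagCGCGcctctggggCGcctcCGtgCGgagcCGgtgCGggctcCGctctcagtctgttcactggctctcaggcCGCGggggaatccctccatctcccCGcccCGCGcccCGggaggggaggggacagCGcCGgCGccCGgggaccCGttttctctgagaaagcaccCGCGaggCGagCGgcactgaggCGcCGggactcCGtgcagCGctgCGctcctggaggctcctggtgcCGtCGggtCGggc
Ebf1 internal promoter, chr11:44619978-44620227, plus strand: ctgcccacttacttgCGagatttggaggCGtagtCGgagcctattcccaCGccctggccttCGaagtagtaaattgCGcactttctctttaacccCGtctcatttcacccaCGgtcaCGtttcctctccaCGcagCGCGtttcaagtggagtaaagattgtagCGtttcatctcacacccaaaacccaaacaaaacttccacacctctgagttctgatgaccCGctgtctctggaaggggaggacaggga
CpGs were densest in the Ebf3 stretch, with 43 in 250 bases, followed by 31 at the internal Ebf4 start and 14 at the internal Ebf1 start. None of the 3 stretches lay in a 500-EMP peak.

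The second group holds whole 500-EMP peaks. The Ebf2 and Ebf4 peaks are shown as pieces that lay within wide 15000-EMP peaks, and the Ebf3 peak as a region found with 500 EMPs alone. None of them overlapped an exon of the gene.
Ebf2 upstream peak, chr14:67229635-67229783, plus strand: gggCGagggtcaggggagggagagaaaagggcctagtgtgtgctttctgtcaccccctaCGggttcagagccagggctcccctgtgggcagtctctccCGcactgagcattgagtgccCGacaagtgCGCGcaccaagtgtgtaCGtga
Ebf4 3′ peak, chr2:130362546-130362844, plus strand: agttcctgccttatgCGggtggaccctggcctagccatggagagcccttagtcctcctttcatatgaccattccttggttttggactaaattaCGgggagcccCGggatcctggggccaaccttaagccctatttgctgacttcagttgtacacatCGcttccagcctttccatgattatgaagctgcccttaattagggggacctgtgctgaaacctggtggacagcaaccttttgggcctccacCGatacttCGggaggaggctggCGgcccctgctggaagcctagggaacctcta
Ebf3 distal upstream peak, chr7:137357295-137357431, minus strand: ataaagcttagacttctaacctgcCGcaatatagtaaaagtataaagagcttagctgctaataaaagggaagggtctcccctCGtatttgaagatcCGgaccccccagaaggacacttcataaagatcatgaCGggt
These peaks held fewer CpGs than the promoters, namely 7 in 149 bases at Ebf2, 7 in 299 bases at Ebf4 and 4 in 137 bases at the distal Ebf3 site. The letters CCCNNGGG, a palindromic core of the sites that Ebf proteins bind and thus the same on both strands, were found 1 time in the 300-base RefSeq promoter of Ebf3 and 0 times in those of Ebf4 and Ebf1. Of all 32851 promoters of the same length, 13.7% held them.

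To ask how common such peaks were, the Ebf genes were set beside all protein-coding genes. With 500 EMPs, 18.6% of 21938 protein-coding genes had a peak in the gene or within 20 kb, and with 15000 EMPs 30.1% had. Long genes offer more room, and among the 5007 genes of at least 50 kb, to which all Ebf genes belong, the shares were 25.5% and 41.6%. All 4 Ebf genes had such a peak in both libraries. A peak within 3 kb of the gene start, the distance at which the study assigned targets, was present in 9.92% of genes with 500 EMPs and 17.0% with 15000 EMPs, and again in all 4 Ebf genes in both libraries. Within 1 kb, all 4 had a peak with 15000 EMPs but 2, Ebf2 and Ebf4, with 500 EMPs. With 4 genes, chosen with earlier results of these data known, these counts are a description.

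The covered length, the number of bases under peaks in the gene and 20 kb on each side, separated the members. In the 500-EMP library, Ebf1 had 772 bp, Ebf4 2528 bp, Ebf2 5741 bp and Ebf3 9426 bp. In the 15000-EMP library, Ebf1 had 7754 bp, Ebf4 10819 bp, Ebf2 14080 bp and Ebf3 25667 bp. This order was the same in both libraries. In the gene body alone it was not, as Ebf4 with 9075 bp stood above Ebf2 with 7757 bp in the 15000-EMP library, against 2079 bp and 3039 bp with 500 EMPs. Peak numbers did not keep this order either, since Ebf2 had 10 peaks and Ebf4 5 with 500 EMPs but 4 each with 15000 EMPs. No spread over replicates was available to judge any step of this order. Summed over the 4 loci, 31 peaks covered 18467 bp with 500 EMPs and 19 peaks covered 58320 bp with 15000 EMPs, a ratio of 3.16 beside a ratio of 4.03 over the whole genome. The ratio was 2.45 at Ebf2, 2.72 at Ebf3, 4.28 at Ebf4 and 10.04 at Ebf1, where the 500-EMP peaks were short.

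**Figure D1:**
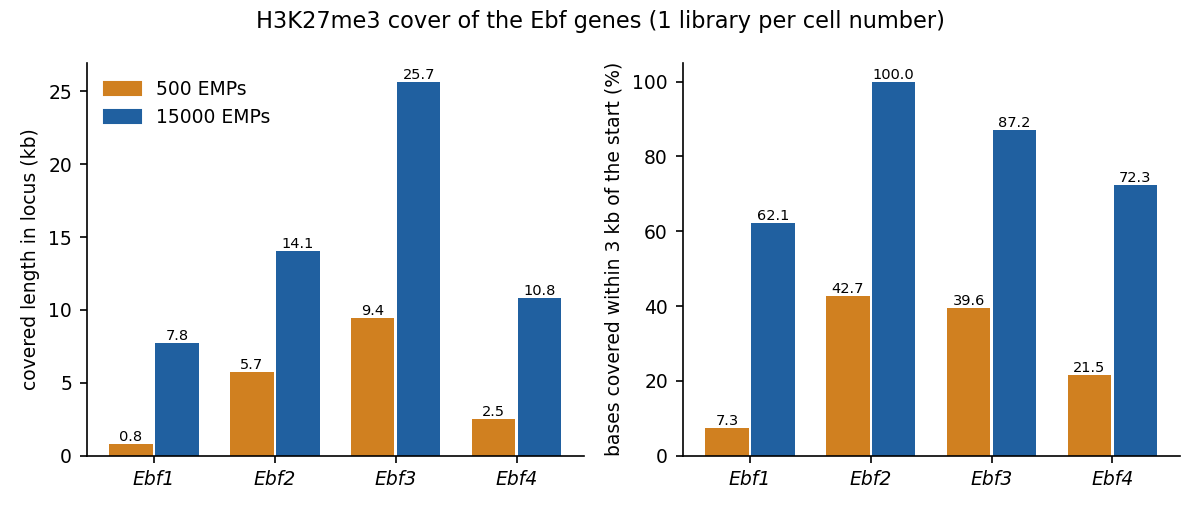
Covered length in kb in each gene with 20 kb on each side (left) and percent of bases within 3 kb of the gene start under a peak (right), for the 500-EMP and the 15000-EMP library; each bar is 1 library, with no error. Ebf3 had the longest cover in both libraries, at 9.43 and 25.7 kb, and Ebf2 had the fullest cover around the start, at 42.7% and 100%.

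Within 3 kb of the start, a window whose cover cannot exceed 100%, Ebf2 rather than Ebf3 had the most cover. With 15000 EMPs, peaks covered 62.1% of the bases within 3 kb of the Ebf1 start, 72.3% at Ebf4, 87.2% at Ebf3 and 100% at Ebf2. With 500 EMPs the shares were 7.3%, 21.5%, 39.6% and 42.7%, with Ebf1 again lowest and Ebf2 highest. The bar chart of covered length and start cover sets both measures side by side. Within 10 kb of the start, the 15000-EMP cover of Ebf3, 18805 bp, was at rank 42 of 21938 genes, that of Ebf2 was at rank 209, of Ebf1 at rank 590 and of Ebf4 at rank 1131. The ranks with 500 EMPs were 117 for Ebf3, 206 for Ebf2, 978 for Ebf4 and 1371 for Ebf1. Thus Ebf2 and Ebf3 stood high in both libraries, and Ebf1 and Ebf4 changed places. The median over the 4 Ebf genes was 3516 bp with 500 EMPs and 10661.5 bp with 15000 EMPs, against 991 bp and 3444.5 bp over all genes with a peak within 3 kb of the start.

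**Figure D2:**
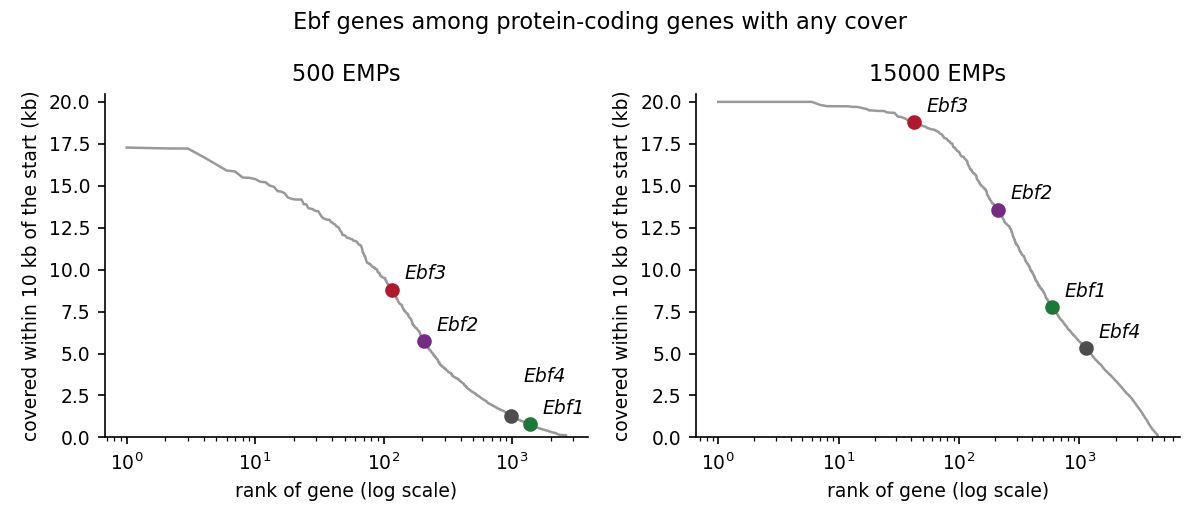
Covered length within 10 kb of the gene start (kb) against rank on a log scale, for protein-coding genes with any cover in the 500-EMP (left) and the 15000-EMP library (right); the grey line holds all such genes and the points are the Ebf genes. Ebf3 and Ebf2 stood above Ebf1 and Ebf4 in both libraries.

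At Ebf1, the regulator that commits progenitors to the B lineage, the mark formed a pair of flanks. With 500 EMPs it had a 334-bp peak from -4621 to -4288 bp of the start and a 438-bp peak from 1994 to 2431 bp. With 15000 EMPs these became peaks of 3225 bp, from -5958 to -2734 bp, and 2897 bp, from 1173 to 4069 bp, and another peak of 1632 bp between -2332 and -701 bp appeared. The 3′ flank of the 15000-EMP cover held 221 coding bases. The stretch from -700 to 1172 bp, 1873 bp in length, was not covered in either library, and none of the 5 Ebf1 starts of the GENCODE models lay under a peak, unlike the internal RefSeq start. No peak was found in the remaining body of the gene. With 15000 EMPs the cover upstream of Ebf1, 4857 bp, was longer than the 2897 bp inside the gene.

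Ebf2, which marks brown adipocyte precursors, was the member whose start base was covered in both libraries. With 15000 EMPs, 1 peak of 12943 bp ran from -6152 to 6790 bp and stood at rank 85 by width among all 15282 peaks. With 500 EMPs the same domain was called in pieces, as 9 peaks lay within it and covered 5516 bp, or 42.6% of it. The piece over the start was 755 bp, from -364 to 390 bp, and the widest piece was 1834 bp, from 2232 to 4065 bp. All 4 annotated starts were covered with 15000 EMPs and 3 with 500 EMPs. Both libraries placed a small peak just beyond the domain, 225 bp from -6441 bp with 500 EMPs and 171 bp from -7180 bp with 15000 EMPs, and these did not overlap each other. Farther into the gene, 15000 EMPs gave a 455-bp peak from 7041 to 7495 bp and a 511-bp peak from 30653 bp, and neither had a counterpart with 500 EMPs.

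**Figure D3:**
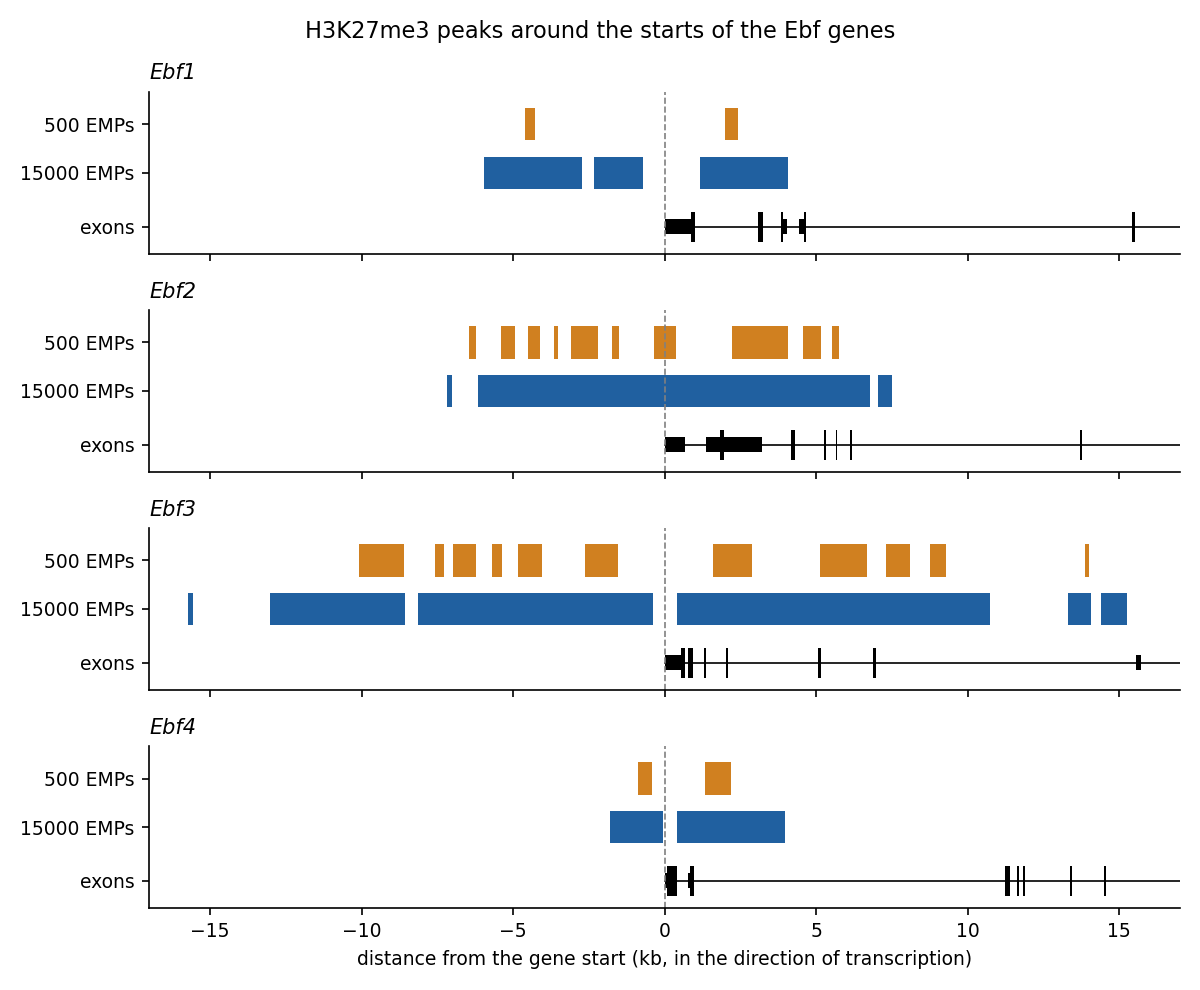
Peaks around the starts of the 4 Ebf genes by distance in kb from the gene start, in the direction of transcription; bars are peaks with 500 EMPs (upper) and 15000 EMPs (lower), black boxes are exons, taller where coding, and the dashed line is the start. The start base was under a peak at Ebf2 alone, and the 15000-EMP peaks left 1873 bp at Ebf1, 770 bp at Ebf3 and 460 bp at Ebf4 free.

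Ebf3, a factor of neuronal development, carried the longest cover. With 15000 EMPs, a peak of 10340 bp, from 404 to 10743 bp inside the gene, and a peak of 7757 bp, from -8123 to -367 bp, faced each other across the start, and a peak of 4484 bp continued upstream to -13033 bp. These 3 peaks held 10 peaks of the 500-EMP library, between 295 and 1570 bp wide. The 2 peaks beside the start stood at ranks 170 and 327 by width. Between them 770 bp, from -366 to 403 bp, were left free in the 15000-EMP library, and 3123 bp were free with 500 EMPs. After peaks within 3 kb had been joined, the 15000-EMP domain at Ebf3 spanned 30979 bp, against 14676 bp at Ebf2, 10028 bp at Ebf1 and 5781 bp around the Ebf4 start.

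Ebf3 also had scattered narrow peaks, most of them with 500 EMPs. With 500 EMPs, 5 of its peaks were 137 bp wide, the smallest width of that list. This width was common, as all peaks from rank 8465 of 10223 by width onwards had it. Of the 5 peaks, 4 lay in the gene and 1 lay 42850 bp upstream of the start. A 15000-EMP peak was present at 2 of them, those at 13884 bp and 59075 bp. The other 3 had none, at 95341 bp, at 115202 bp and at the upstream site, and the peak at 115202 bp lay wholly in coding sequence. Peaks in the distal part of the gene were assigned by the authors' annotation to Gm10578, an antisense gene within Ebf3.

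At Ebf4 the mark was split between the ends of the gene. Around the start, 500-EMP peaks of 449 bp, from -863 to -415 bp, and 842 bp, from 1338 to 2179 bp, lay within 15000-EMP peaks of 1744 bp and 3577 bp. The 15000-EMP peaks left 460 bp free, from -53 to 406 bp. A start 770 bp into the gene was thereby covered with 15000 EMPs, whereas the gene's first base was not. The 3′ peak, 5255 bp from 62616 to 67870 bp, was wider than either peak at the start with 15000 EMPs, held 974 coding bases and contained 3 peaks of the 500-EMP library, of 323, 615 and 299 bp. With it, 52.4% of the Ebf4 coding bases lay under 15000-EMP peaks, against 12.4% for Ebf1, 27.9% for Ebf2 and 31% for Ebf3. The authors' annotation paired these 3′ peaks with Cpxm1, a neighbouring gene whose start had no peak within 3 kb. In all, 6 of the 31 peaks with 500 EMPs (19.4%) and 4 of the 19 peaks with 15000 EMPs (21.1%) were paired with a gene other than the Ebf gene in which they lay.

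**Figure D4:**
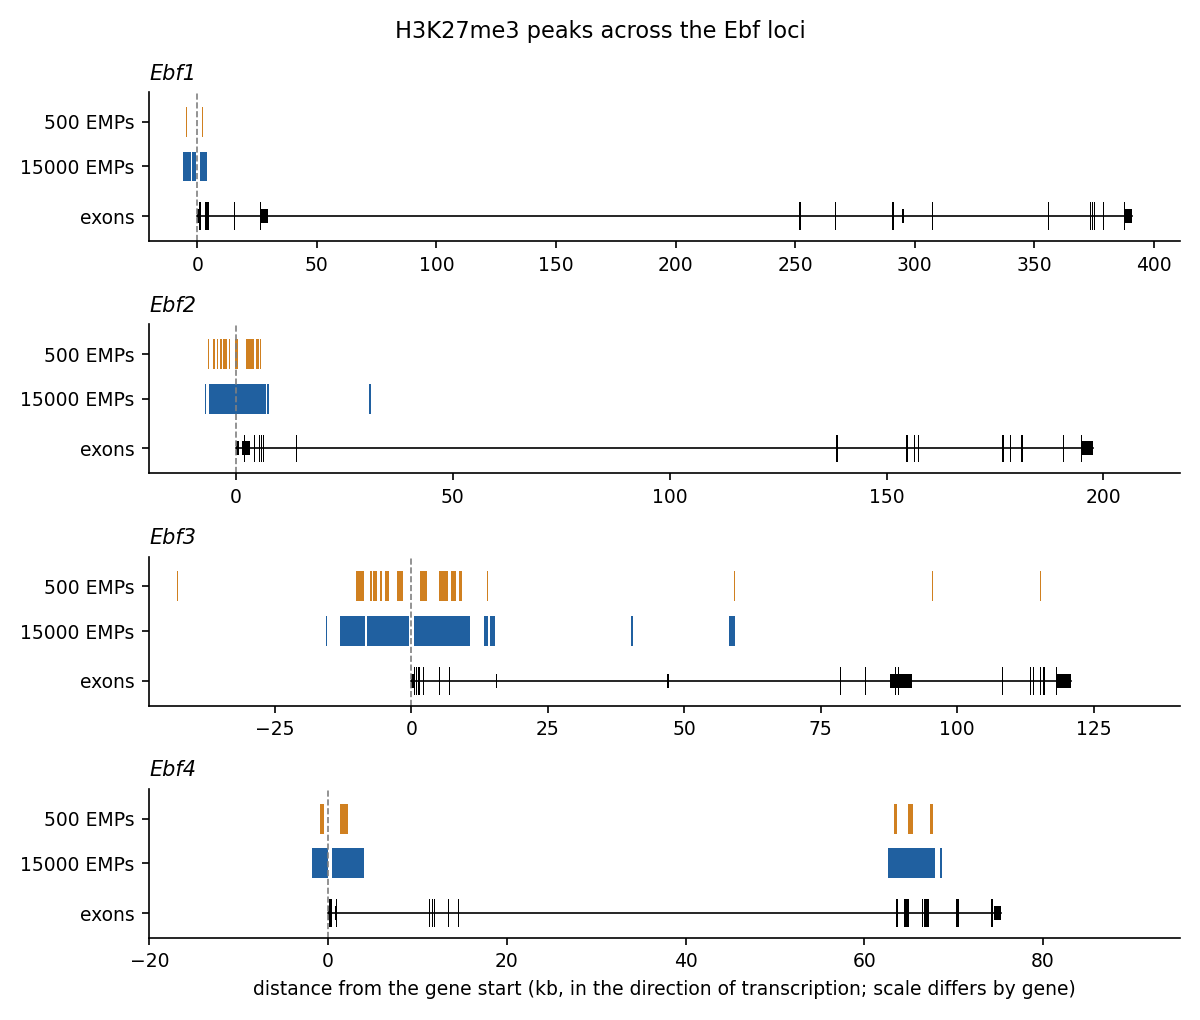
The same peaks across each whole gene with its flanks, in kb from the gene start, each panel on its own scale; peaks narrower than the line are drawn at line width. Peaks clustered at the starts of all 4 genes, Ebf4 had a separate 15000-EMP block from 62616 bp onwards, and Ebf3 had narrow peaks along the gene and 1 far upstream with 500 EMPs.

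The marked regions were bounded on both sides, as the map across the whole genes shows. No peak lay in the 20 kb downstream of any Ebf gene in either library. None of the 8 neighbouring protein-coding genes (Rnf145, Clint1, Ppp2r2a, Cdca2, Mgmt, 9430038I01Rik, Idh3b and Cpxm1) had a peak within 3 kb of its start or in its body. Beyond the distal Ebf3 site, the nearest peak outside the loci was 205 kb away, next to Ebf4 with 15000 EMPs.

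The next question was how far the low-input library found the same places. At the 4 loci, 28 of 31 peaks with 500 EMPs had a counterpart, meaning a 15000-EMP peak that shared 1 bp or more. This was a share of 90.3% (exact 95% interval 74.2 to 98%, counting error only), beside 91.2% over all 500-EMP peaks. The 3 without a counterpart were the outermost upstream piece at Ebf2 and 2 of the narrow peaks inside Ebf3. In the other direction, 11 of 19 peaks with 15000 EMPs overlapped a 500-EMP peak, a share of 57.9% (exact 95% interval 33.5 to 79.7%), beside 32.2% over all 15000-EMP peaks. Neighbouring peaks of a domain are not independent, as 9 of the 500-EMP peaks lay in a single Ebf2 peak. Neither interval can therefore be used to judge a difference from the share over all peaks. Overlaps were partial for the 15000-EMP peaks, as 0 of 19 were overlapped over at least 50% of their width. Of the 31 peaks with 500 EMPs, 28 were overlapped over at least 50% of their own width, but 0 shared at least 50% of both peaks. The Ebf peaks were wider than most, with a median of 1632 bp against 770 bp over the 15000-EMP list. Of these 19 peaks, 4 exceeded 5 kb, beside 875 of all 15282. With 500 EMPs, 0 of 31 did, beside 30 of all 10223. Whether width accounts for the higher share of 15000-EMP peaks with an overlap was not tested. Of the bases covered with 500 EMPs at the 4 loci, 97.3% were also covered with 15000 EMPs, and 30.8% in reverse.

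An uncovered start between peaks was a feature of 3 Ebf genes, and it was looked for in all genes after the Ebf values had been seen. Among genes with a peak within 3 kb of the start, 36.6% with 500 EMPs and 19.6% with 15000 EMPs had an uncovered start base with peaks on both sides. At 500 EMPs 2 Ebf genes, Ebf3 and Ebf4, had this form, and at 15000 EMPs 3 had it, Ebf1, Ebf3 and Ebf4. The base composition at the starts was set beside this form. In the 401 bp centred on the start, GC content was 76.3% at Ebf3 and 81.3% at Ebf4, but 57.6% at the covered start of Ebf2 and 55.6% at Ebf1. Over all genes with a peak nearby in the 15000-EMP library, the median GC content was 69.8% (interquartile range 62.1 to 75.3%) for the 729 starts left free between peaks and 61.8% (55.4 to 67.3%) for the 1893 covered starts. Ebf3 and Ebf4 thus lay above the upper quartile of the former, Ebf1 lay below its lower quartile, and Ebf2 lay within the range of covered starts. Whether GC content bore on where peaks were called was not tested.

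The free stretches were set beside the peaks of the same gene. The 770 bp free at Ebf3 had a GC content of 73.2% and a CpG observed over expected of 1.09, a ratio that compares the number of CpGs with that given by the C and G content. The 460 bp at Ebf4 had 81.7% and 0.812, and the 1873 bp at Ebf1 had 51.4% and 0.713. Under the 15000-EMP peaks GC content was 49.3% at Ebf3, 54.1% at Ebf4 and 51% at Ebf1, so that GC content at Ebf1 was nearly the same in both. The ratio under these peaks was 0.513 at Ebf3, 0.392 at Ebf4 and 0.398 at Ebf1, and 0.48 at Ebf2. Parts of the loci under no peak of either library had ratios of 0.274 at Ebf3, 0.211 at Ebf4, 0.217 at Ebf1 and 0.237 at Ebf2. By this ratio, CpG content was lowest in the parts under no peak, which include the free stretches, and higher under the 15000-EMP peaks. At Ebf1, Ebf3 and Ebf4 it was highest in the stretch left free over the start. In the 401 bp centred on the start, however, it was 0.327 at Ebf1, below that under its peaks, beside 1.08 at Ebf3 and 0.79 at Ebf4. Under the 500-EMP peaks the ratio was 0.42 at Ebf1, 0.524 at Ebf2, 0.472 at Ebf3 and 0.245 at Ebf4, where it was close to the unmarked part. The Ebf peaks with 500 EMPs had a median ratio of 0.419, against 0.28 over all peaks of that library, and 24 of 32 lay above the latter. With 15000 EMPs the medians were 0.353 and 0.283, and 11 of 19 lay above.

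**Figure D5:**
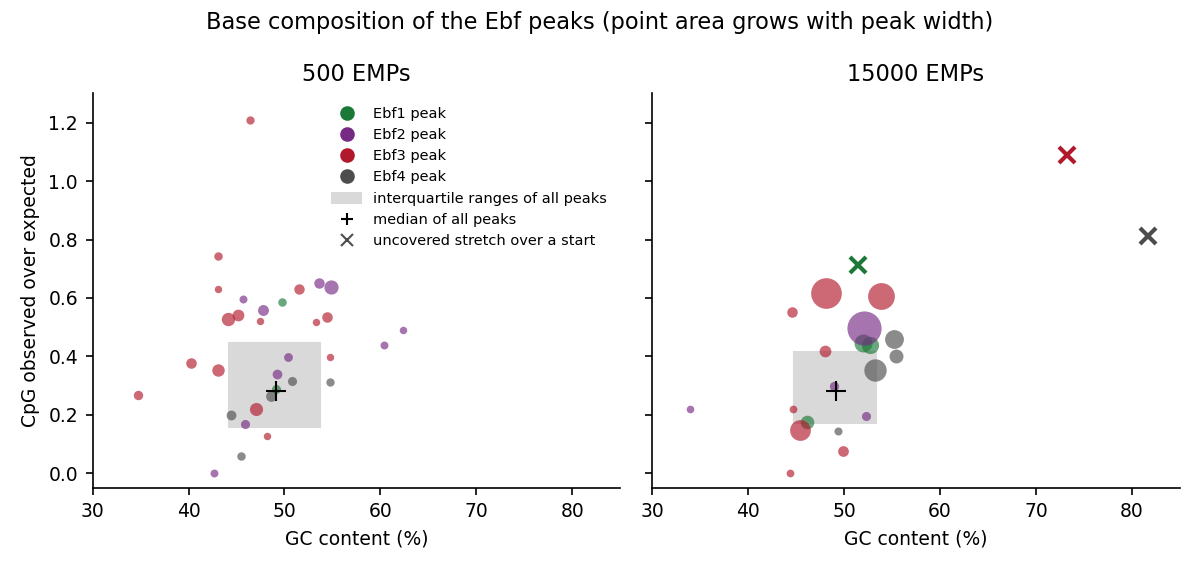
CpG observed over expected (a ratio) against GC content (%) for each Ebf peak with 500 EMPs (left) and 15000 EMPs (right), point area growing with peak width; the grey box spans the interquartile ranges of all peaks, the plus is their median, and crosses are stretches over a start that the 15000-EMP peaks left free. With 15000 EMPs the 3 widest peaks, of Ebf2 and Ebf3, lay above the box, and the free stretches of Ebf3 and Ebf4 lay apart from all peaks at 73.2% and 81.7% GC.

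Genes whose cover had the most similar outline to each Ebf gene were named by the Jaccard index, the shared share of covered bases within 10 kb of the start in both libraries, over 4517 genes with any cover there. The nearest were Camsap2 (0.589), Pdgfra and Chst2 for Ebf1, Insm1 (0.701), Nkx2-9 and Sox9 for Ebf2, Zic1 (0.75), Mnx1 and Hoxd13 for Ebf3, and Rnf39 (0.748), Epb41l1 and Cacna2d1 for Ebf4. The Ebf genes were not each other's nearest. Between Ebf2 and Ebf3 the index was 0.47, the highest of the 6 pairs, and between Ebf3 and Ebf4 it was 0.195, the lowest.

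Genes that act with Ebf factors were counted by the same measure, a peak within 3 kb of the start, against the 9.92% and 17.0% of all genes. Of 10 regulators of the early B lineage, Flt3 (a cytokine receptor) and Gfi1 (a transcriptional repressor) had a peak in both libraries and Foxo1 with 15000 EMPs alone. Tcf3, Ikzf1, Spi1, Bcl11a, Il7r, Runx1 and Myb had none. Of 11 genes that Ebf1 activates in B cells, 1 had a peak in either library, namely Pax5, itself a transcription factor, with 9821 bp and 17687 bp covered within 10 kb of the start. The others, among them Cd79a and Cd79b of the B cell receptor complex and Rag1 and Rag2 of receptor gene recombination, had none. Of 8 partners and antagonists of Ebf factors, 5 had a peak with 500 EMPs (Zfp423, Id2, Id3, Id4 and Prdm16) and 6 with 15000 EMPs (also Cebpa), whereas Id1 and Zfp521 had none in either.

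The Pax genes, another family of developmental transcription factors, were set beside the Ebf genes. Of 9 Pax genes, 8 had a peak within 3 kb of the start with 500 EMPs, all but Pax4, and 9 with 15000 EMPs. Their median cover within 10 kb of the start was 9821 bp with 500 EMPs and 17835 bp with 15000 EMPs, above the Ebf medians of 3516 bp and 10661.5 bp. Ebf3 alone, with 18805 bp at 15000 EMPs, lay above the Pax median there. As at Ebf1, Ebf3 and Ebf4, the start base of Pax5 was free in both libraries, whereas the 8 other Pax starts were covered with 15000 EMPs.

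As to the labelled cell type, 0 of 10 EMP markers, among them Kit, Itga2b (CD41), Runx1, Gata1 and Spi1, had a peak within 3 kb of the start in either library, although Fcgr3 had 1060 bp and 2869 bp of cover within 10 kb. Of 5 endothelial markers, Kdr had a peak with 15000 EMPs, with 274 bp covered within 10 kb of the start. Of 3 B-lineage markers, Pax5 had a peak and Cd79a and Vpreb1 had none. Presence or absence of H3K27me3 is no measure of expression, so these counts do not identify the cells.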

How the data were processed

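Per the labels, 4 CUT&RUN libraries were made from yolk sac EMPs at E10.5, and groups came from the sample titles. The authors aligned reads to mm10 (GRCm38) using Bowtie2 (2.2.1). They then ran MACS2 (2.1.2) in broad mode on every H3K27me3 library on its own. Their methods give a stricter p-value threshold for 500 EMPs, whereas their command listing swaps the libraries, and the lists were taken as labelled. Broad calling joins nearby enriched stretches, which bears on peak number and width. The deposited files hold the chromosome, start and end of each peak and the genes that ChIPpeakAnno paired with it, and no height, score or read count. The IgG libraries entered only through the authors' peak calling, and their peaks were not analysed here.

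Positions are 1-based. The peak lists were used for coordinates, and 0 peaks ran past a chromosome end of GRCm38.p6. Genes were the 21938 protein-coding genes of GENCODE vM21 on chromosomes 1 to 19, X and Y, and the gene start was the 5′ end of the gene model. Overlap meant at least 1 bp. Shares of peaks with a counterpart carry exact binomial 95% intervals, and a share of 0 among them the limit that 3 counts would give, a different rule. Both cover counting error only and treat the peaks as independent. CpG observed over expected is the number of CpGs times the length, divided by the product of the numbers of C and G. Proteins were aligned globally with the BLOSUM62 matrix in Biopython 1.88. Interval code was tested on simulated data. Analyses used Python 3.11.15, numpy 2.4.6 and scipy 1.17.1. With 1 library per group no test was made. The named genes were the 4 members, their neighbours, the 3 genes of most similar outline and the listed genes, and the members and lists were chosen with earlier results of these data known. An item of the lists is not reported here.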

Additional observations from a re-analysis of the deposited data

How the results depend on the processing

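All 4 Ebf genes kept a peak at the locus in both libraries with the gene body alone, a flank of 50 kb, peaks joined within 1 kb or 3 kb, or no peaks of the smallest width. With peaks of at least 500 bp only, 3 did with 500 EMPs, since Ebf1 had none, and 4 with 15000 EMPs. The number with a peak near the start changed with a window of 1 kb, to 2 genes (Ebf2 and Ebf4) with 500 EMPs, and was 4 with 15000 EMPs. Without the peaks under 500 bp it was 3 with 500 EMPs, again without Ebf1. With 500 EMPs the summed peak count went from 31 to 17 in gene bodies alone, 19 and 11 with peaks joined within 1 kb and 3 kb, and 14 with peaks of at least 500 bp. With 15000 EMPs it went from 19 to 12 in gene bodies, and to 11 and 8 after joining. Covered length fell to 10264 bp and 32966 bp in gene bodies alone, and rose to 37160 bp with 500 EMPs after joining within 3 kb. Of the 500-EMP peaks, 100% had a counterpart when both lists held peaks of at least 500 bp only (14 of 14), whereas the share of 15000-EMP peaks fell to 42.9% (6 of 14). After joining within 1 kb and 3 kb the latter was 72.7% and 75%. Of the 500-EMP peaks, 90.3% were overlapped over at least 50% of their own width. An overlap of at least 50% of both peaks was reached by 0% of the 500-EMP peaks. This allows up to 9.68% when 3 counts are taken as the limit of a count of 0. Of the 15000-EMP peaks, 0% reached an overlap of at least 50% of their own width or of both peaks, which by the same limit allows up to 15.8%, since the 500-EMP pieces covered less of them. Of 64 alternative values over the 4 genes, 49 stayed within 1.5 times the reported count or within its interval, and of 96 values for single genes, 62 stayed within 1.5 times.

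No paired analysis was possible because each group held 1 library, and for the same reason no library was left out. Without read counts or peak heights, the reads behind a call are unknown, and an uncovered stretch means that no peak was called there.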
